A study of Mus musculus with 26 samples.

Results

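The transcriptome of Nanog-/- embryonic stem cells (ESCs) was set directly against that of epiblast stem cells (EpiSCs), to list the genes that separate a naive culture without Nanog from the primed state and the genes that both hold at a like level. The comparison drew on 7 of the 26 samples of the series, 3 RNA-seq samples of Nanog-/- ESCs and 4 of EpiSCs, and 3 RNA-seq samples of wild-type (WT) ESCs are given beside them as the parent. The deposited table holds 1 value per gene and cell type, the authors' median in RPKM (reads per kilobase of gene, scaled to the size of the library), so no replicate spread, error or test can be given and every call below is a fold threshold only. It covers 15646 genes with a level and lists genes that have a fragment baited in promoter capture Hi-C (PCHi-C), an assay that reads which fragments touch promoters.

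The Nanog-/- line was RCNβH-B(t), 1 line made from E14Tg2a, grown at passages 20 to 30 with 25 µg/ml hygromycin during expansion to select for cells without Nanog. Its parent E14Tg2a, of the 129P2/OlaHsd background, supplied the WT ESCs. Both ESC lines grew on gelatin in 15% fetal bovine serum with LIF at 1000 U/ml. The EpiSCs came from 129S2 embryos, kept on fibronectin in serum-free N2B27 with 20 ng/ml Activin A and 12 ng/ml bFGF. The strain label gives C57BL/6 for all of these samples, against the growth notes. Substrain, medium, growth factors, substrate and cell state all differ together between Nanog-/- ESCs and EpiSCs and cannot be told apart. Libraries were read as 50 bp or 100 bp single ends, without a statement of which, and their depth is unknown because no counts were used here. In bulk RNA, fewer cells expressing a gene and less RNA per cell cannot be told apart either.

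Mouse ESCs in serum and LIF represent the naive pluripotency of the preimplantation epiblast, and EpiSCs represent the primed pluripotency of the epiblast after implantation. NANOG, OCT4 (Pou5f1) and SOX2 are shared transcription factors of both states. The naive state depends on LIF, JAK and STAT3 signalling and on factors such as KLF2, KLF4, ESRRB and TBX3, and it can be held without Nanog, although such cultures tend towards primitive endoderm. The primed state depends on Activin or Nodal and on FGF, and its cells express low levels of genes of the coming primitive streak.

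EpiSC levels were divided by 1.81, the median ratio of EpiSC to Nanog-/- ESC over the 9239 genes at 1 RPKM or more in both, and log2 ratios were taken after adding 1 RPKM. Of 10591 genes at 1 RPKM or more in either cell type, 378 were 4-fold or more higher in EpiSCs (3.57%) and 593 were 4-fold or more higher in Nanog-/- ESCs (5.6%). At 1 RPKM or more in both, 4658 of 9002 genes lay within 1.5-fold of each other (51.7%). The median log2 ratio was -0.0018, and the middle part of the genes, from the lower to the upper quartile, ran from -0.59 to 0.60. EpiSC genes were 38.9% of the 4-fold calls, and 71.2% (1120 against 454) when the columns were left unscaled, where the median log2 ratio was 0.80. Directions below are therefore relative to the median gene. In counts over lists, higher means 4-fold or more, to be set against the 3.57% and 5.6% of all tested genes. Some genes sit in more than 1 list, so the lists are not independent readings. The log2 of the scale factor is 0.86. For genes far above 1 RPKM, a log2 ratio between about -0.86 and 0 turns positive in unscaled columns. Genes of low level move by less, because 1 RPKM is added.

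**Figure D1:**
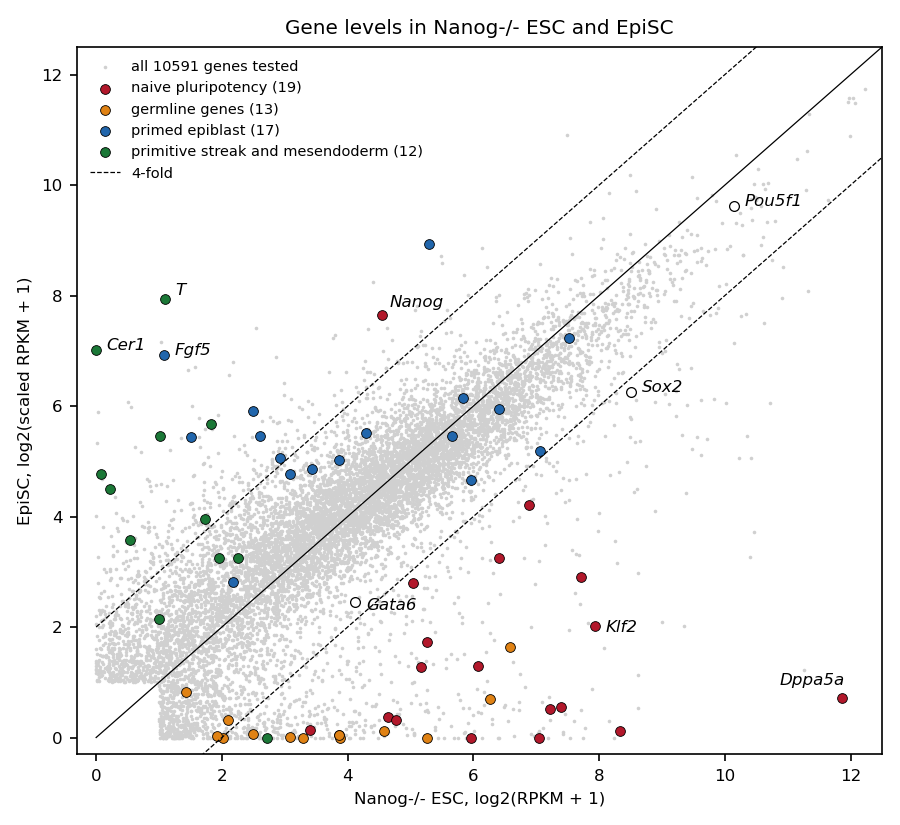
Authors' median level of each of 10591 genes in Nanog-/- ESCs (x axis) and EpiSCs (y axis, scaled), both as log2(RPKM + 1), with members of 4 gene lists in colour, 3 further genes as open circles and dashed lines at 4-fold. Naive and germline genes lie low on the right, T, Fgf5 and Cer1 high on the left, and Nanog is the naive list's only member above the upper line.

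The 5 marker genes were read first. Nanog, the gene removed in the null line, stood at 438 RPKM in WT ESCs, 22.3 in Nanog-/- ESCs and 199 in EpiSCs. The null line was thus lowest and EpiSCs lay between it and the parent (log2 ratio of EpiSC to Nanog-/- ESC 3.10). The table gives 1 value for the gene, so which part of Nanog the remaining reads came from is not known, and 4.63% of its sequence words occur in other genes. Klf2, a naive-state transcription factor, was at 316, 244 and 3.07 RPKM in the same order. Fgf5, a ligand that marks the epiblast after implantation, was at 4.97, 1.11 and 121. T (Brachyury), the primitive streak factor, was at 3.54, 1.14 and 245. For these 3 genes the null line sided with its parent, and EpiSCs were far apart. Gata6, the primitive endoderm factor, was at 0.56 RPKM in WT ESCs, 16.4 in Nanog-/- ESCs and 4.51 in EpiSCs. It was highest in the null line, with a log2 ratio of -1.66 that did not reach 4-fold. None of the 5 markers went against the labels of the cell types.

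A large part of the calls towards Nanog-/- ESCs sat in genes that share sequence with other genes, which bears on how far each call can be read. Each gene's longest annotated transcript was divided into words of 50 bases, the shorter read length, and the share of words also present in another gene was counted. Genes that overlap at 1 locus, on either strand, also count as sharing words and were not separated from copies elsewhere. This may be so for Gbx2 and D130058E05Rik, with 870 shared words each. Among 8782 genes sharing under 10% of their words, 338 were higher in EpiSCs (3.85%) and 324 in Nanog-/- ESCs (3.69%). Among 1695 genes sharing 10% or more, 34 were higher in EpiSCs (2.01%) and 249 in Nanog-/- ESCs (14.7%). The share higher in Nanog-/- ESCs was 3.99% of genes with no shared word and 39.6% of genes with over 75% of words shared, where the median log2 ratio was -0.997. The share higher in EpiSCs did not climb in that way, at 4.22% and 1.22%. Whether read length or the treatment of reads with several matches differed between the libraries was not tested. Genes with 10% or more of shared words are therefore uncertain wherever they are named below, and list counts are also given without them where the calls differ.

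**Figure D2:**
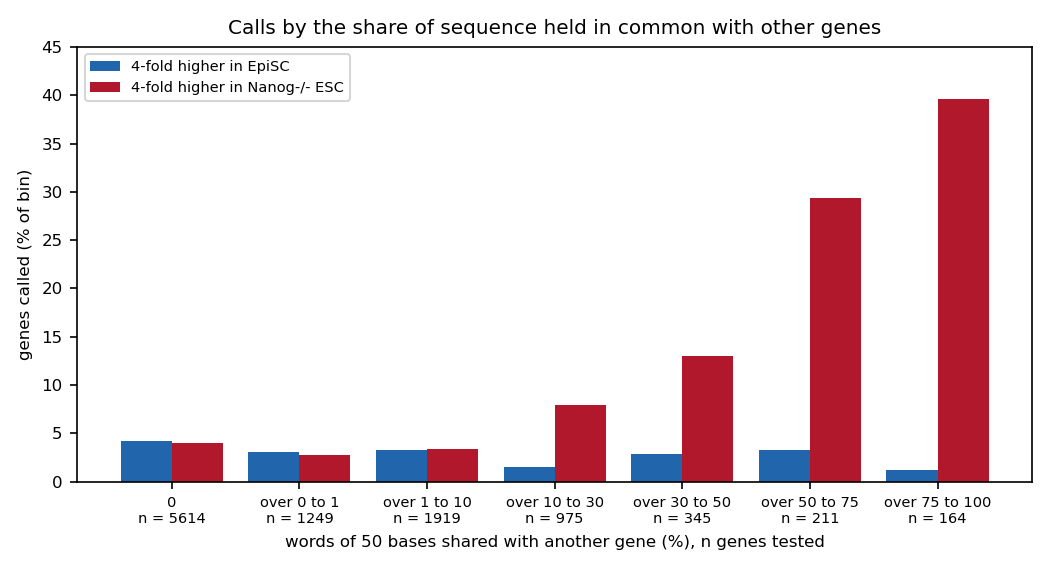
Share of tested genes called at 4-fold in each direction (y axis, %) by the percentage of 50-base words a gene shares with other annotated genes (x axis, 7 bins with their gene numbers). Calls towards Nanog-/- ESCs climb from 3.99% in the first bin to 39.6% in the last, and calls towards EpiSCs stay at or under 4.22%.

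The naive pluripotency list separated the cultures most widely. Of 19 members tested, 18 were 4-fold or more higher in Nanog-/- ESCs, with a median log2 ratio of -4.45 against -0.0018 over all genes, and the exception was Nanog itself. Without members that share words the count was 13 of 14. Esrrb, an orphan nuclear receptor of the naive network, was at 221 RPKM in WT ESCs, 147 in Nanog-/- ESCs and 0.43 in EpiSCs. Tcfcp2l1, a transcription factor downstream of LIF, was at 86.5, 66.3 and 1.45. Tbx3, a T-box factor, was at 15.7, 24.1 and 0.29. All 3 were held at 24.1 RPKM or more in the null line and at 1.45 or less in EpiSCs. Nr0b1 (Dax1), a nuclear receptor without a DNA-binding domain of the usual kind, was at 132 and 131 in the ESC lines and was listed at 0 in EpiSCs. Tcl1, a co-activator of AKT, was at 101 and 61.7 and was also listed at 0. Fbxo15, long used as a reporter of the ESC state, was at 269.8, 209 and 6.50.

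Some naive genes kept a measurable level in EpiSCs. Klf4 was at 97.6 RPKM in WT ESCs, 31.8 in Nanog-/- ESCs and 5.99 in EpiSCs, and Klf5 at 93.0, 118 and 17.6. Fgf4, the ESC ligand that drives ERK signalling, was at 158, 83.6 and 8.57. These were among the narrowest gaps of the list, with log2 ratios of -2.23, -2.67 and -3.15, and Klf4 and Klf5 dropped below 4-fold when the columns were left unscaled. The null line itself was below its parent for Klf4, for Nr5a2 (27.7 and 9.59 RPKM, against 0.10 in EpiSCs) and for Dppa3 (77.7 and 13.6, against 0.03). Dppa3, which protects methylation marks in the early embryo, shares 17.7% of its words and is uncertain. So are Dppa5a (3731 RPKM in Nanog-/- ESCs and 0.65 in EpiSCs), Tdh (322 and 0.09), Dppa2 (168 and 0.46) and Gbx2 (37.4 and 2.30). Dppa5a gave the widest ratio of any named gene, at -11.14, with 30.4% of its words shared.

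**Figure D3:**
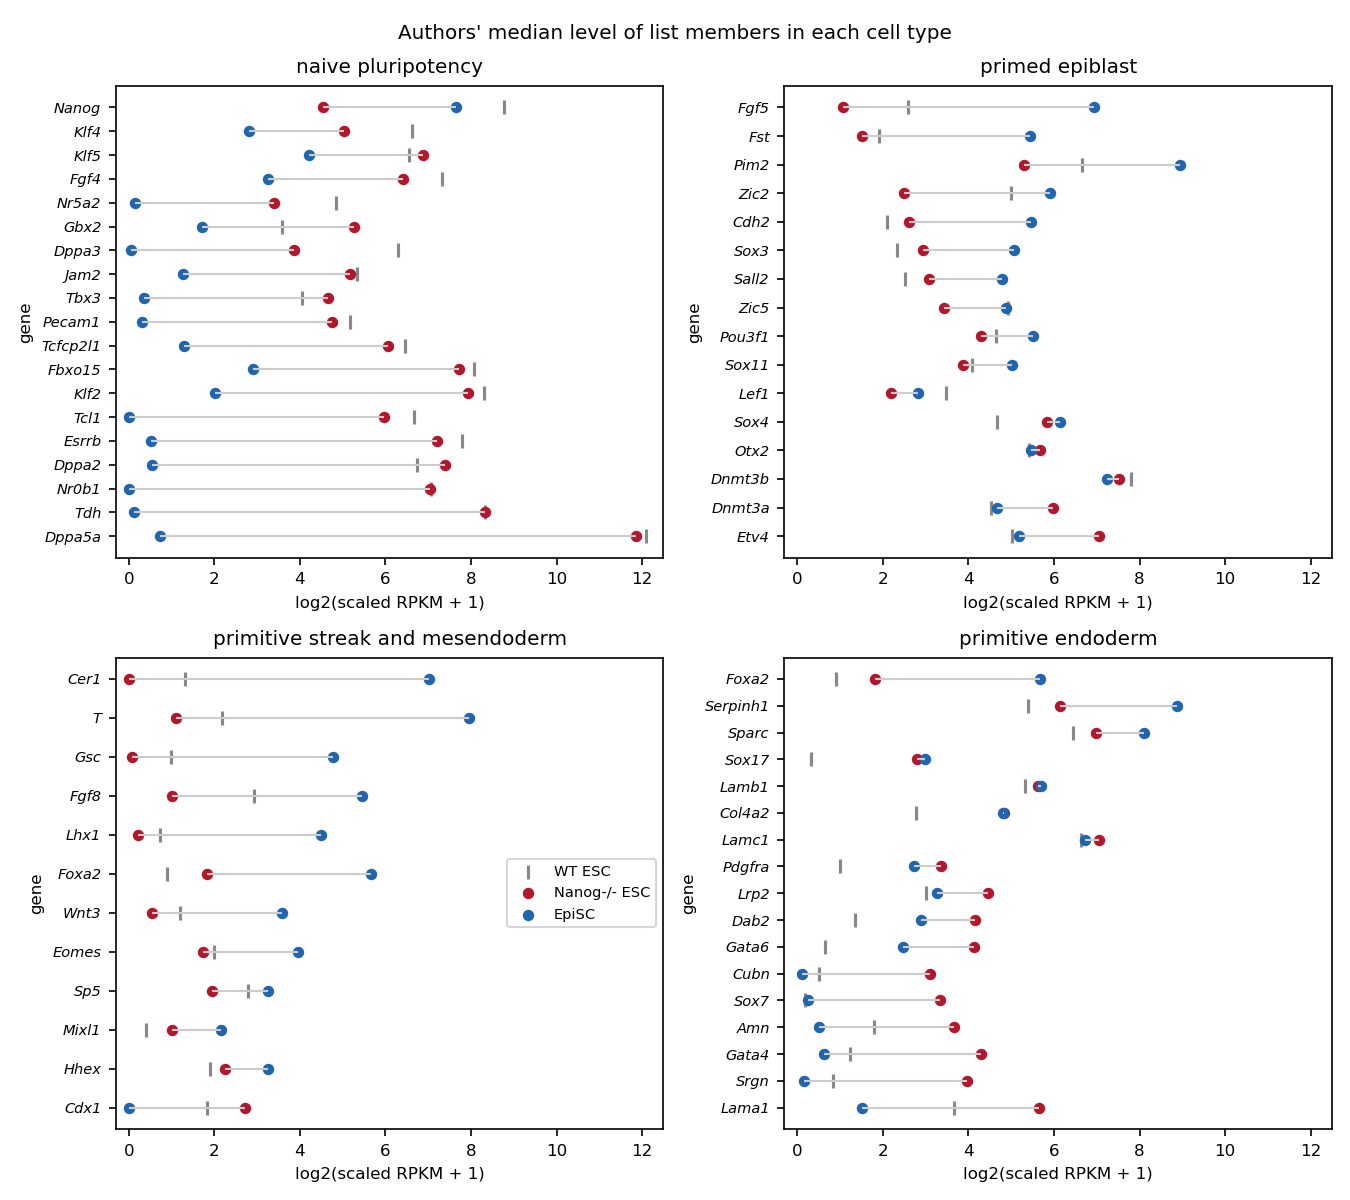
Authors' median level of tested members of 4 lists (1 primed gene is not drawn), as log2(scaled RPKM + 1) on the x axis, in WT ESCs (grey bars), Nanog-/- ESCs (red) and EpiSCs (blue), with genes on the y axis sorted by the ratio of EpiSC to Nanog-/- ESC. For the naive list most red points lie near the grey bars and the blue points at the left, except for Nanog; for primitive endoderm genes such as Gata4, Sox7 and Amn the red points stand alone on the right.

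Of 12 general pluripotency factors tested, 1 was higher in EpiSCs (Nanog) and 2 in Nanog-/- ESCs, 3 lay within 1.5-fold (against 51.7% of all genes), and 11 had a log2 ratio below 0, with a median of -0.99. Among the 9 members with few shared words, 1 passed in each direction. Pou5f1 (OCT4) was at 1216 RPKM in WT ESCs, 1129 in Nanog-/- ESCs and 785 in EpiSCs. Lin28a, an RNA-binding protein that blocks let-7, was at 243, 239 and 228, and Zfp281 at 57.2, 56.8 and 40.0. All 3 lay within 1.5-fold between Nanog-/- ESCs and EpiSCs, although Pou5f1 shares 15.9% of its words. Sox2 was 364 RPKM in Nanog-/- ESCs and 75.6 in EpiSCs, a log2 ratio of -2.25 that dropped below 4-fold without scaling. Dppa4 was 237 and 0.83 and shares 35.9% of its words.

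The list of the LIF pathway and its targets shares Klf4 and Tcfcp2l1 with the naive list, so it is not an independent reading. Of 10 LIF members tested, 5 were higher in Nanog-/- ESCs, Klf4 and Tcfcp2l1 among them, and none in EpiSCs. The median log2 ratio was -1.73. Socs3, the feedback inhibitor that STAT3 induces, was at 104 RPKM in Nanog-/- ESCs and 14.9 in EpiSCs, and Bcl3 at 31.9 and 4.46. Receptor and kinase genes differed less. The shared receptor subunit Il6st was at 34.8 and 24.6, Jak1 at 23.8 and 28.9, and Lifr, the LIF-specific subunit, at 11.2 and 4.04. Of the 5 called genes, Socs3, Pim3, Bcl3 and Klf4 dropped below 4-fold without scaling and Tcfcp2l1 did not.

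The primed epiblast list showed a split. Of 17 members tested, 6 were higher in EpiSCs and none in Nanog-/- ESCs, with a median log2 ratio of 1.22, and 10 passed without scaling. Beside Fgf5, the called genes were Fst, an inhibitor of Activin, at 1.86 RPKM in Nanog-/- ESCs and 42.6 in EpiSCs, and Pim2, a serine/threonine kinase, at 38.3 and 489. The neural-plate factors Zic2 (4.62 and 59.4) and Sox3 (6.62 and 32.3) and the cadherin Cdh2 (5.09 and 43.1) completed the 6. For Zic2, Fgf5 and Pim2 the null line lay below its parent as well, with 30.8, 4.97 and 100.0 RPKM in WT ESCs. Of all 17 members, 12 had a log2 ratio above 0. Sall2 (7.44 and 26.4 RPKM), Zic5 (9.83 and 28.2), Pou3f1 (18.5 and 44.5) and Sox11 (13.6 and 31.6) were on the EpiSC side without reaching 4-fold. Otx2 was at 49.7 and 43.0 RPKM and Dnmt3b, with 11.5% of words shared, at 183 and 149. Etv4, an ERK-responsive ETS factor, was at 132 RPKM in Nanog-/- ESCs, against 31.5 in WT ESCs and 35.2 in EpiSCs.

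Genes of the primitive streak and mesendoderm lay furthest on the EpiSC side. Of 16 members in the table, 12 reached 1 RPKM in either cell type, and 8 of these were higher in EpiSCs, 1 in Nanog-/- ESCs. The median log2 ratio of the 12 tested was 3.45. Cer1, Gsc, Lhx1 and Wnt3, under 1 RPKM in Nanog-/- ESCs, were tested only through their EpiSC level, which raises this median. Cer1, a secreted inhibitor of Nodal, BMP and Wnt, was listed at 0 in Nanog-/- ESCs and stood at 1.49 RPKM in WT ESCs and 129 in EpiSCs. The organizer genes Gsc (0.06 and 26.2), Lhx1 (0.16 and 21.7) and Foxa2 (2.54 and 50.0) and the streak signals Fgf8 (1.01 and 42.7) and Wnt3 (0.45 and 11.0) were all higher in EpiSCs than in Nanog-/- ESCs. Eomes was at 2.33 and 14.5. Mixl1 (1.01 and 3.45), Sp5 (2.87 and 8.51) and Hhex (3.78 and 8.53) did not reach 4-fold. Cdx1 went the other way, at 5.60 RPKM in Nanog-/- ESCs and listed at 0 in EpiSCs. Wnt3a, Mesp1, Evx1 and Kdr were under 1 RPKM in both and were left out, with log2 ratios from -0.37 to -0.09.

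Genes of the primitive endoderm gave a mixed picture. Of 17 members tested, 6 were higher in Nanog-/- ESCs and 2 in EpiSCs, with a median log2 ratio of -1.19. Gata4 was at 1.35 RPKM in WT ESCs, 18.5 in Nanog-/- ESCs and 0.54 in EpiSCs. Sox7 was at 0.13, 9.18 and 0.20, and Cubn and Amn, the subunits of an endocytic receptor of visceral endoderm, at 7.65 and 11.7 in Nanog-/- ESCs and at 0.08 and 0.43 in EpiSCs. Lama1, a laminin of the basement membrane, was at 11.8, 49.0 and 1.86. The null line was highest for all 5. Others stood above the parent in both cultures. Sox17 was at 0.25 RPKM in WT ESCs, 5.93 in Nanog-/- ESCs and 6.94 in EpiSCs (23.6% of words shared), Pdgfra at 0.98, 9.20 and 5.60, Dab2 at 1.54, 16.8 and 6.40, and the collagen Col4a2 at 5.79, 27.6 and 26.8. The 2 members higher in EpiSCs, Foxa2 and the collagen chaperone Serpinh1 (69.4 and 467), are also expressed outside this lineage. Hnf4a, Ttr and Afp, genes of later visceral endoderm, were under 1 RPKM in both.

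Signalling genes of the primed state were then ordered by role. The ligand Nodal was at 70.0 RPKM in Nanog-/- ESCs and 67.5 in EpiSCs, and its receptor Acvr1b at 22.4 and 31.3. Of 16 genes of the Nodal and Activin pathway, 3 were higher in EpiSCs, among them Cer1 and Smad3, and 2 in Nanog-/- ESCs (Pcsk6 and Lefty2). Over all tested genes the shares were 3.57% and 5.6%, and Cer1 is also in the streak list. Among the 13 with few shared words, 3 and 1 passed. Smad3, an effector, was at 6.06 and 34.8 while its partner Smad2 was at 35.3 and 27.4. The feedback inhibitors Lefty1 (285 and 927) and Lefty2 (319 and 27.1) went in opposite directions, and both share over 10% of their words.

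In the FGF and ERK list, 2 of 17 genes were higher in EpiSCs, the ligands Fgf5 and Fgf8. Another 2 were higher in Nanog-/- ESCs, the ligand Fgf4 and the feedback inhibitor Spry4. Over all tested genes the shares were 3.57% and 5.6%. Fgf5, Fgf8 and Fgf4 are also in the primed, streak and naive lists, so the counts are not independent. Spry4 was at 35.7 RPKM in WT ESCs, 110.5 in Nanog-/- ESCs and 8.56 in EpiSCs. Dusp6, the ERK phosphatase, was at 36.5, 96.8 and 100.2, and Dusp4 at 25.8, 78.2 and 62.8. Both cultures thus lay above WT ESCs for the phosphatases, whereas for Spry4 EpiSCs lay below WT ESCs. The receptor Fgfr1 was at 24.8 RPKM in Nanog-/- ESCs and 60.6 in EpiSCs.

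In the BMP list 4 of 12 genes were higher in EpiSCs (3.57% of all tested genes) and none in Nanog-/- ESCs (5.6%). They were 2 ligands, Bmp2 (0.80 and 22.6 RPKM) and Bmp7 (2.30 and 46.7), and 2 secreted inhibitors, Nog (0.53 and 37.5) and Chrd (1.55 and 42.1). No target gene passed in either direction, with Id1 at 50.4 and 26.7, Id2 at 23.2 and 13.7, Id4 at 3.34 and 4.44 and Smad6 at 2.48 and 7.16. In the Wnt list, 5 of 16 genes were higher in EpiSCs, namely the ligands Wnt3 and Wnt8a (2.42 and 32.7), the receptor Fzd2 (7.61 and 68.7) and the inhibitors Dkk1 (2.73 and 22.9) and Nkd1 (1.56 and 12.3). Cdx1 alone was higher in Nanog-/- ESCs, and Cdx1 and Wnt3 are also in the streak list. The target Axin2 was at 5.53 and 6.33 and the effector Ctnnb1 at 395 and 391.

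Germline genes formed the second group that was low in EpiSCs. Of 13 members tested, 10 were 4-fold or more higher in Nanog-/- ESCs and none in EpiSCs, and the median log2 ratio was -3.29. Without genes that share words the count was 7 of 10. Dppa3, which is also in the naive list, is among the 10 called genes and not among these 7. All tested members but Sycp3 were under 1 RPKM in EpiSCs and so were tested only through Nanog-/- ESCs. Asz1 and Dpep3, under 1 RPKM in both, were left out, with log2 ratios of -0.05 and -0.86. Tex19.1, which restrains transposons, was at 70.7 RPKM in WT ESCs, 76.0 in Nanog-/- ESCs and 0.62 in EpiSCs. Ddx4, the germ cell RNA helicase, was at 15.7, 22.8 and 0.09. Mael, a piRNA pathway protein, was at 30.0 and 37.3 and listed at 0 in EpiSCs, as were Dazl, Stk31 and Hormad1 (27.2% of words shared). The null line was close to its parent for Tex19.1, Ddx4 and Mael. It lay below WT ESCs for Dppa3 (77.7 RPKM in WT and 13.6 in Nanog-/- ESCs), Hormad1 (24.1 and 13.7) and Dazl (6.04 and 3.03). For Taf7l it lay above them (2.075 and 7.46). Tdrd1, Tex101 and Brdt lay on the same side without reaching 4-fold.

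Among DNA methylation genes, Dnmt3l, a cofactor of de novo methylation, was at 192 RPKM in WT ESCs, 392 in Nanog-/- ESCs and 0.45 in EpiSCs, a log2 ratio of -8.08. Tet1, which oxidizes 5-methylcytosine, was at 105, 119 and 18.7, a ratio that fell under 4-fold without scaling. These were the 2 called genes of 8 tested. The maintenance enzyme Dnmt1 was at 129.6 and 112.5 RPKM, and the de novo enzyme Dnmt3a at 61.6 and 24.4. In WT ESCs Dnmt3a was at 22.2, close to EpiSCs.

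Many germline promoters are rich in CpG dinucleotides and are known targets of methylation, so promoter windows were read from RefSeq (GRCm38.p6, 250 bases before to 50 after the start). Of the germline genes tested, 12 of 13 had a window, and 11 of the 12 had an observed to expected CpG ratio of 0.6 or more, against 36.5% of all 27025 RefSeq promoters used and 71.5% of the tested genes that had a window (78% of them, too few for a check against all tested genes). The letters TATAAA were found on either strand in 3 of the 12 (25%), in 14.2% of all promoters and in 7.17% of those of tested genes. ATGCAAAT (the octamer of OCT4), ATCAAAG and TCAAGGTCA were found in 0 of the 12, and in 1.77%, 3.76% and 0.41% of all promoters. The same check over the called genes is void, since 70.6% of the genes higher in EpiSCs and 59.7% of those higher in Nanog-/- ESCs had a window. The 250 bases before the start are shown 5′ to 3′ with every CpG in capitals, for 2 germline genes that were low in EpiSCs and for 3 genes that lead the EpiSC side.
Mael: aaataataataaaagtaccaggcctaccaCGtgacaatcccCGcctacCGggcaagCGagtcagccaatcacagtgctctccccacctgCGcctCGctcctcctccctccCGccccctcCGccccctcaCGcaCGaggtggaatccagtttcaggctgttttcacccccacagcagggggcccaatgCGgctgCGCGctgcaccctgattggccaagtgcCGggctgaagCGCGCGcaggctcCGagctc
Tex19.1: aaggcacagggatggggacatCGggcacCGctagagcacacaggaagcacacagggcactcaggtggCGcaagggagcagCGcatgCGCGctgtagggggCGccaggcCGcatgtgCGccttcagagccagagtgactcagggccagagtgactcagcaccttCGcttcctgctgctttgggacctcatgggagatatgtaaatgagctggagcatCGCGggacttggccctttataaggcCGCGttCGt
Fgf5: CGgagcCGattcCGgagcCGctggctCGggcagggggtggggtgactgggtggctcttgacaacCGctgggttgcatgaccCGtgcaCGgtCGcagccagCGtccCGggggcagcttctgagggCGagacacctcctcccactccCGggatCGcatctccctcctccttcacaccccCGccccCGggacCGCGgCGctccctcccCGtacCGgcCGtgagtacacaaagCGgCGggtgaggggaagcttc
T: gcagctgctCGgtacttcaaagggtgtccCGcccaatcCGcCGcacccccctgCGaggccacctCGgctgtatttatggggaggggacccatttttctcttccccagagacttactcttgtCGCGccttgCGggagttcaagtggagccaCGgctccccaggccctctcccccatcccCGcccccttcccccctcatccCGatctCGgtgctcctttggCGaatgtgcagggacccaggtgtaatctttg
Cer1: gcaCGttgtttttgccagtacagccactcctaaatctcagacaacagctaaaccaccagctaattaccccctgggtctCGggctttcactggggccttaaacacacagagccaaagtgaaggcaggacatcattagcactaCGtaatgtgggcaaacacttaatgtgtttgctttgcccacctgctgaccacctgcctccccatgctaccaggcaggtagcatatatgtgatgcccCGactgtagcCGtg

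Mael (minus strand, chr1:166238745-166238994) holds 18 CpGs in these 250 bases and Tex19.1 (plus strand, chr11:121145893-121146142) holds 15. Fgf5 (plus strand, chr5:98253934-98254183) holds 24, T (plus strand, chr17:8434173-8434422) 14, and Cer1 (minus strand, chr4:82885152-82885401) 5. CpG number in the window therefore did not sort these 5 genes by direction, and DNA methylation was not measured in these samples. Gata6 has no window in the table used.

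The 12 genes of largest ratio on the EpiSC side, leaving out predicted genes and pseudogenes, included T, Fgf5, Cer1 and Gsc from the lists. The others were Mgp, an inhibitor of calcification (1.04 RPKM in Nanog-/- ESCs and 143 in EpiSCs), the ligand Shh (0.03 and 58.5, with 19.2% of words shared), Igfbp5 (0.41 and 66.1), the sulfotransferase Chst1 (0.47 and 62.4), the apelin receptor Aplnr (0.01 and 39.3), the ubiquitin-like Isg15 (1.76 and 99.2) and the hormone precursor Pomc (1.96 and 103). Hprt, the purine salvage enzyme, was at 1.42 RPKM in WT ESCs, 4.82 in Nanog-/- ESCs and 169.7 in EpiSCs. E14Tg2a, the source of both ESC lines, is known as an Hprt-deficient line.

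On the Nanog-/- side the 12 largest ratios were Dppa5a, Rps27, Tdh, Dnmt3l, Triml2, Rps4y2, Rbmxl2, Rpl3, Nr0b1, Dppa4, Dppa2 and Rps23, of which 8 share 10% or more of their words. Those below that share were Dnmt3l, Nr0b1, Triml2 (185 RPKM, listed at 0 in EpiSCs) and the testis gene Rbmxl2 (144, listed at 0). A second list of 12 restricted to such genes, chosen after the values were seen, added Esrrb, the amino acid transporter Slc38a4 (105 and 0.42), Triml1 (69.6, listed at 0), Tcl1, Klf2, the septin Sept1 (113 and 0.89), Dmrt1, a regulator of testis and germ cells (66.2 and 0.38), and Tex19.1. For Dmrt1 the null line lay above its parent (27.1 RPKM). In all, 85 tested genes were listed at 0 in EpiSCs and 11 in Nanog-/- ESCs. No gene of the housekeeping list was at 0 in either.

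At 100 RPKM or more in the higher cell type, 491 of 1189 genes lay within 1.5-fold. From 20 to 100 RPKM, 2115 of 3840 did. The 10 of highest level within 1.2-fold were Eef2, Ldha, Nedd4, Ywhae, Actb, Cox8a, Hnrnpa2b1, Cox6b1, Pcbp2 and Hdgf, of which Ldha, Actb and Pcbp2 share 10% or more of their words. The elongation factor Eef2 was at 2599 RPKM in Nanog-/- ESCs and 2491 in EpiSCs, and Hdgf, a growth factor, at 493 and 506. Nedd4, a ubiquitin ligase, was at 885 and 904 and the RNA-binding Hnrnpa2b1 at 616 and 641. WT ESCs stood at 3568, 510.1, 879 and 571 for these 4 genes.

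The 2 cultures also shared differences from WT ESCs. Among genes within 1.5-fold of each other, the 8 furthest above WT ESCs were Ccl7, Sox17, Ifi202b, Csf1, Col4a2, Foxq1, Tm4sf1 and Grem1. The chemokine Ccl7 was at 2.51 RPKM in WT ESCs, 23.6 in Nanog-/- ESCs and 28.4 in EpiSCs, and Grem1, a BMP inhibitor, at 5.84, 32.2 and 25.3. Csf1, the macrophage growth factor, was at 2.68, 15.5 and 18.2. The 8 furthest below were Aass, Prss42, Mov10, Esrp1, Sfmbt2, Tmem40, Impa2 and Schip1. Esrp1, an epithelial splicing factor, was at 37.8, 8.82 and 11.3, Mov10, an RNA helicase that restrains retroelements, at 117, 32.1 and 32.9, and the lysine-degrading enzyme Aass at 41.2, 7.71 and 6.00. The WT column enters both differences, so the likeness in direction is set by the choice of genes and is given as levels only. Sox17, Foxq1, Impa2 and Schip1 share 10% or more of their words.

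Of 12 epithelial and mesenchymal genes tested, 1 (Cdh2) was higher in EpiSCs and 6 lay within 1.5-fold, a share near the 51.7% of all genes, including Cdh1, the epithelial cadherin, at 249 RPKM in WT ESCs, 115 in Nanog-/- ESCs and 104 in EpiSCs, and Epcam at 205, 150 and 182. Vim, the mesenchymal filament protein, was at 140.4, 232 and 641. In the imprinted list 5 of 15 genes were higher in EpiSCs (3.57% of all tested genes) and none in Nanog-/- ESCs (5.6%). Peg3 was at 8.33 and 62.0 RPKM, Plagl1 at 0.35 and 7.89 and Grb10 at 45.3 and 185, while Mest and Igf2 share over 30% of their words. Among the 12 with few shared words, 3 passed. The growth inhibitor Igf2r was at 38.8 and 42.3. Grb10 lay at the threshold (log2 ratio 2.00) and dropped below it when the scaling used only genes with few shared words.

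In the lists of energy metabolism, every called gene shares 10% or more of its words. In the glycolysis list 3 of 20 genes were higher in Nanog-/- ESCs (Gapdh, Pgam1 and Eno1), none in EpiSCs, and all 3 share 27.8% or more of their words. Among the 11 members with few shared words no gene passed in either direction and the median log2 ratio was -0.31. Over all genes with few shared words, 3.69% passed towards Nanog-/- ESCs, so 0 of 11 says little. The glucose transporter Slc2a3 was at 436 RPKM in Nanog-/- ESCs and 352 in EpiSCs, Hk2, the first enzyme of the pathway, at 108 and 79.8, and Pfkl at 200.3 and 256. Pfkp (43.3 and 11.35) and Pdk1 (95.5 and 30.2), without shared words, were higher in Nanog-/- ESCs without reaching 4-fold. Of all 20 members, 15 had a log2 ratio below 0 and 5 above. In the cytochrome c oxidase list 1 of 8 genes passed towards Nanog-/- ESCs (Cox7c, with 27.9% of words shared) and none towards EpiSCs, and 0 of the 6 with few shared words passed. Cox7c dropped below 4-fold when the scaling used genes at 10 RPKM or more.

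**Figure D4:**
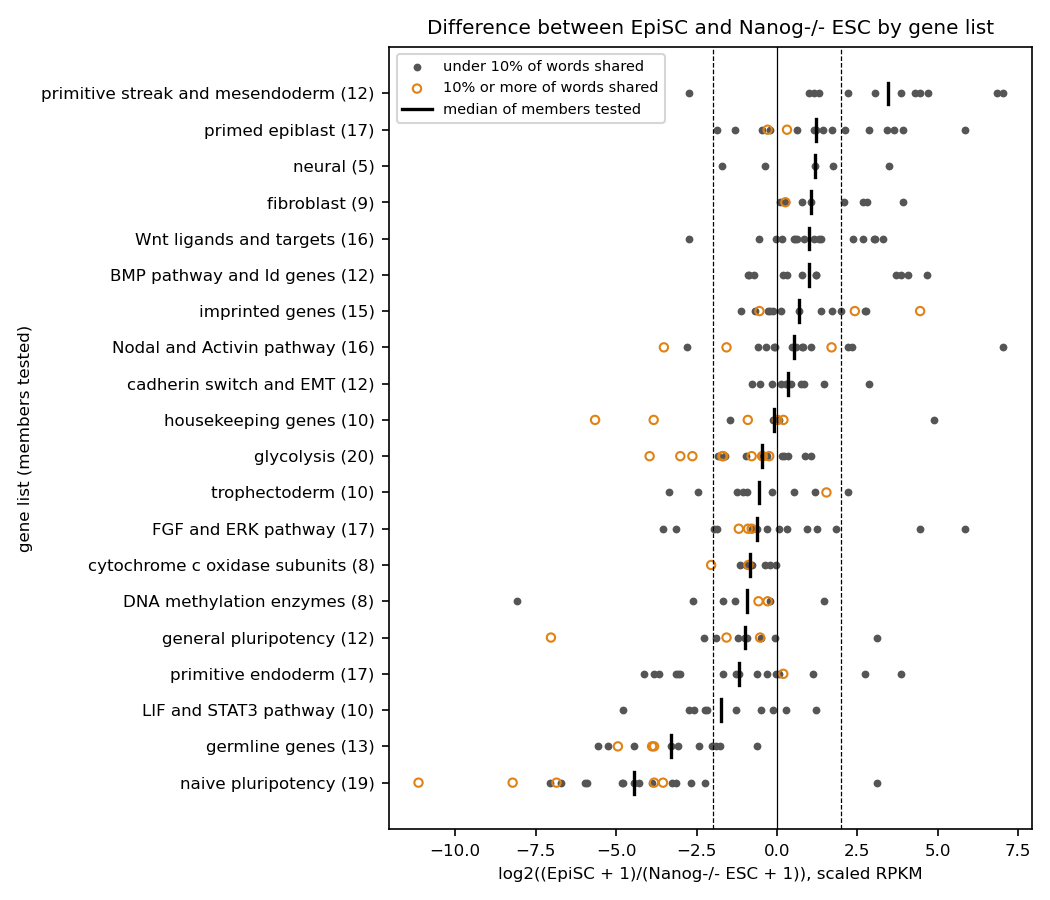
Log2 ratio of EpiSC to Nanog-/- ESC (x axis) for each tested member of 20 gene lists (y axis, with the number tested), black ticks at the list medians, open circles for genes with 10% or more of words shared and dashed lines at 4-fold. Over the members that passed the 1 RPKM filter, the naive and germline lists have the lowest medians (-4.45 and -3.29) and the primitive streak list the highest (3.45).

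Markers of other cell types were read for the whole lists. In the fibroblast list 4 of 9 genes, the collagens Col1a1, Col1a2, Col3a1 and Col5a1, were higher in EpiSCs (51.4 to 75.6 RPKM, against 2.82 to 17.0 in Nanog-/- ESCs), and all 9 lay above 0 on the log2 scale. Thy1, a surface marker of fibroblasts, was at 25.7 and 27.4 and Pdgfrb at 4.23 and 5.34, and Lum, Dcn and Fap were not analysed here. In the trophectoderm list of 10, Tcfap2c (15.4 and 0.62) and Hand1 (4.49 and 0.01) were higher in Nanog-/- ESCs and Eomes in EpiSCs. Cdx2 was at 1.72 and 0.43. Krt8 (81.1 and 237, with 29.7% of words shared) and Krt18 (78.5 and 180) were on the EpiSC side without reaching 4-fold. Of the 10, 4 had a log2 ratio above 0 and 6 below. In the neural list 1 of 5 genes was higher in EpiSCs at 4-fold, the filament gene Nes (12.6 and 149). Of the 5, 3 had a log2 ratio above 0 and 2 below, Tubb3 (34.8 and 9.985) and Pax6 (1.74 and 1.11). Neurog2, Pou3f2, Zic1, Hes5 and Pax3 were under 1 RPKM in both. The part of other cells in these differences was not tested. In the housekeeping list of 10, Hprt was higher in EpiSCs, 2 genes with shared words, among them Ppia, were higher in Nanog-/- ESCs, and the median log2 ratio was -0.10. Among the 5 with few shared words, Hprt alone passed.

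Promoter contacts gave a readout that the RNA comparison had not used. The combined PCHi-C lists hold 74931 different fragment pairs in Nanog-/- ESCs, from 5 sequencing lanes, and 87369 in EpiSCs, from 2, and each list is 1 value per cell type without replicate spread. Of 10374 tested genes with a baited fragment in any list, 49.5% had more listed contacts in EpiSCs than in Nanog-/- ESCs and 34.5% had fewer. Of 371 genes higher in EpiSCs, 57.1% had more and 29.1% fewer, and their mean number of contacts went from 5.32 to 7.41, a ratio of 1.39 against 1.16 over all tested genes. Of 580 genes higher in Nanog-/- ESCs, 44.3% had more and 34.1% fewer, with a ratio of means of 1.14. At a CHiCAGO score of 7 or more (the score measures how far reads exceed the background) the shares with more contacts were 35.0% of all, 45.8% and 31.2%. Neighbouring genes can share a baited fragment and the lists were not matched for depth, so these shares are descriptions.

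**Figure D5:**
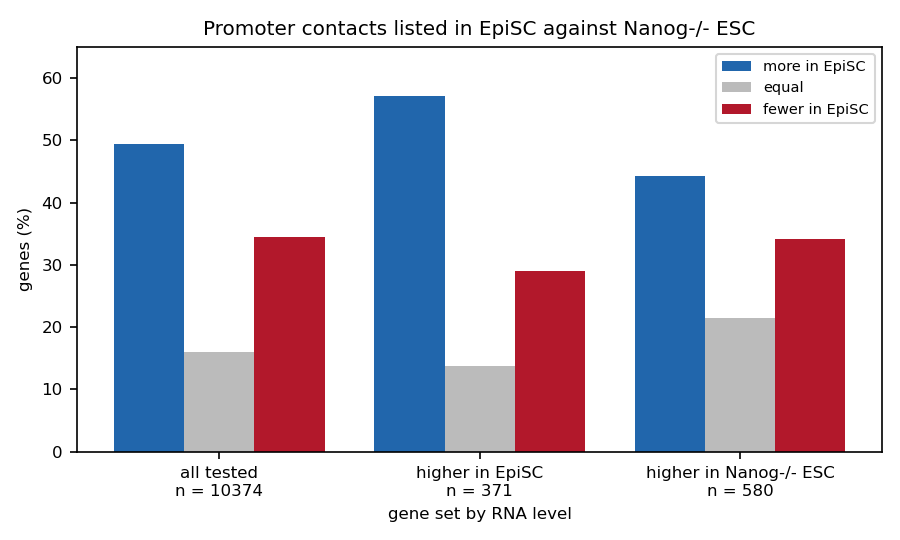
Share of genes (y axis, %) with more, equal or fewer listed promoter contacts in EpiSCs than in Nanog-/- ESCs, for all 10374 tested genes and for the genes 4-fold higher in either cell type. Genes higher in EpiSCs have more contacts there in 57.1% of cases, against 49.5% of all genes.

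Members of the primed list were the clearest case, since 14 of 16 had more contacts in EpiSCs and 1 had fewer, with medians of 1 contact in Nanog-/- ESCs and 5.5 in EpiSCs. Zic2 had 18 contacts in Nanog-/- ESCs and 36 in EpiSCs, Sox3 had 0 and 10, and Gsc from the streak list had 2 and 12. WT ESCs had 17, 3 and 13 contacts at these genes. T had fewer contacts in EpiSCs (3) than in Nanog-/- ESCs (6). Of the 13 germline genes, 10 had more contacts in EpiSCs and none fewer, although their RNA was lower there, and the medians were 1 and 2. In the naive list 5 of 19 had more and 9 fewer, and the medians were 3 and 3, with Klf2 at 11 and 6 and Esrrb at 12 and 10. In the trophectoderm list 8 of 10 had fewer. Nanog had 11 contacts in both cultures and 20 in WT ESCs, and Hprt had 0 in both ESC lines and 4 in EpiSCs.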

How the data were processed

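RNA was purified from 3 WT ESC, 3 Nanog-/- ESC and 4 EpiSC samples and made into TruSeq mRNA libraries. The processing notes of the submitters name Trim Galore, TopHat, DESeq2 and GRCm38 (mm10), without versions, roles or the treatment of reads with several matches. The authors deposited the RPKM as 1 median per group. The column headed BT12 was taken as Nanog-/- ESC from the design text of the series. The log2 fold change and p-value columns that the authors deposited compare each cell type with WT ESCs and were not used. The PCHi-C lists deposited by the authors give a count of reads and a CHiCAGO score for each pair of fragments, combined over the replicates; the 2 copies of a pair were counted once. ChIP-seq samples were not analysed here, and some genes are not reported here.

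Of 15741 rows, 93 repeated a gene with the same values and the first was kept, and 2 of 15648 genes had no level. EpiSC levels were scaled by the median ratio over genes at 1 RPKM or more in both, and WT levels in the same way to Nanog-/- ESC (0.95). Genes at 1 RPKM or more in either were tested at 4-fold after adding 1 RPKM. Shared words of 50 bases were counted on both strands over the longest GENCODE M21 transcript of each gene, and 98.2% of genes matched. List symbols were matched directly or through RefSeq synonyms. The named genes were the 5 markers, the 12 largest ratios in each direction, up to 4 called and the defining members of each list, the 10 highest genes within 1.2-fold, and the 8 genes furthest from WT ESCs in each direction. A further rule, the 10% share of words, was set after the values were seen. The members and lists were chosen with earlier results of these data known. Lists of cleavage-stage and sex-linked genes had 0 members in the table. Depth per sample is unknown from RPKM medians, so no interval can be given. Alternatives were other pseudocounts, thresholds, filters and scalings. Calculations used Python 3.11 with pandas 2.3.3, numpy 2.4.6 and matplotlib 3.10.9, and were tested on simulated data.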

Additional observations from a re-analysis of the deposited data

How the results depend on the processing

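No paired analysis was possible because the table holds 1 median per group, and leaving out a replicate could not be done for the same reason. With a pseudocount of 0.1 RPKM, 739 genes were higher in EpiSCs and 979 in Nanog-/- ESCs. At a 2-fold threshold the numbers were 1556 and 1523, and 10 primed genes passed. Without scaling, 1120 genes were higher in EpiSCs, 2746 lay within 1.5-fold and 10 primed genes passed. The scale factor was 1.63 on genes at 10 RPKM or more and 1.36 as the ratio of summed RPKM. With only genes sharing under 10% of words, an alternative chosen after seeing the data, 324 genes were higher in Nanog-/- ESCs. At a CHiCAGO score of 7 or more, the share with more contacts in EpiSCs was 45.8% of genes higher in EpiSCs, 31.2% of genes higher in Nanog-/- ESCs and 35.0% of all tested. The cause of these moves was not tested. None of the 106 called genes among those named or listed changed sign, but that outcome was fixed in advance. A call needs a log2 ratio of 2 either way, leaving out the scaling moves it by at most 0.86, and a pseudocount cannot change a sign. Eef2, which was not called, went from a log2 ratio of -0.06 to 0.80 without scaling. Of the 106, 9 lost the call without scaling (Bcl3, Cox7c, Klf4, Klf5, Pgam1, Pim3, Socs3, Sox2 and Tet1), 1 with scaling on genes at 10 RPKM or more (Cox7c) and 1 with scaling on genes with few shared words (Grb10). Of 40 counts over the lists, 19 moved by over 1.5 times at the 2-fold threshold, 11 without scaling, 6 with genes of few shared words, and 1 or 0 under each other alternative. The naive count was 18 of 19 as reported, 16 to 18 over the alternatives on these 19, and 13 of 14 with few shared words. The medians carry no spread, so no statement here covers variation between cultures.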

Other observations

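Some gene families outside the lists, chosen after the values were seen, also differed between the cultures. Of 33 tested genes with symbols of the interferon response, 8 were 4-fold or more higher in EpiSCs than in Nanog-/- ESCs and 0 were 4-fold lower. Over all tested genes the shares were 3.57% and 5.6%. The median log2 ratio was 0.74, and 6 of 26 passed among those with few shared words. Oas3, Oasl1, Ifitm1 and Irf8 were among those lower in EpiSCs without reaching 4-fold. The set was taken by symbol, so it also holds Irf2bp1, Irf2bp2 and Isg20l2. Isg15, a ubiquitin-like protein, was at 1.76 RPKM in Nanog-/- ESCs and 99.2 in EpiSCs, and Usp18, the protease that removes it, at 0.64 and 35.2. Irf7, a transcription factor of the response, was at 0.16 RPKM in Nanog-/- ESCs. Of 20 tested collagens, 8 were 4-fold or more higher in EpiSCs and 0 were 4-fold lower, with a median of 1.68. Col9a2, Col13a1, Col18a1, Col12a1, Col5a3 and Col4a2 lay lower in EpiSCs without reaching 4-fold. Col2a1 of cartilage was at 2.12 and 54.3 RPKM. The laminin Lama1 was the 1 called gene of 8 laminins and lay on the other side, at 49.0 and 1.86.

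Single genes chosen after their values were seen include a ligand and its receptor. Apln was at 0.80 RPKM in Nanog-/- ESCs and 24.1 in EpiSCs, and Aplnr at 0.01 and 39.3. The desaturases Scd2 (178 and 1931) and Fads2 (43.6 and 421) and the cyclin Ccnd2 (6.90 and 84.3) were also higher in EpiSCs.

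Cytosolic ribosomal protein genes lay lower in EpiSCs in 33 of 58 cases at 4-fold, with a median log2 ratio of -2.15, and 48 of the 58 share 10% or more of their words. Among the other 10, 3 passed (Rpl39l, Rps28 and Rpl34) and the median was -1.11. Rps14, with no shared word, had a log2 ratio of -0.78, which turns positive in unscaled columns. Of 277 predicted genes named Gm, 132 were lower in EpiSCs at 4-fold, and 14 of the 69 with few shared words. Zfp genes, by contrast, gave 5 calls in each direction among 235.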
